A study of Mus musculus with 8 samples.

Results

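Messenger RNA of 7 receptor genes that T cells use to co-stimulate or tune antigen receptor signals, *Cd28*, *Icos*, *Cd226*, *Crtam*, *Cd2*, *Cd5* and *Cd6*, was compared between WT and LSD1-deficient CD8+ tumor-infiltrating lymphocytes (TILs). The genes were chosen by symbol among the 55335 genes of the count table, and all 7 passed the filter on low counts that left 15378 genes. The first 5 encode immunoglobulin superfamily receptors, whereas CD5 and CD6 carry scavenger receptor cysteine-rich domains in place of immunoglobulin domains. MC38 colon carcinoma was implanted in C57BL/6 mice aged 6 to 10 weeks. WT mice were Lsd1f/f littermates without the Cre transgene, and LSD1-deficient (KO) mice were Cd4-Cre+Lsd1f/f, in which a *Cd4* promoter drives Cre so that the floxed gene is deleted in developing T cells, CD4+ T cells included. CD8+CD44+PD-1+ T cells were sorted from 4 samples per group, so that *Cd44* and *Pdcd1*, the gene of PD-1, were part of the sort. A WT sample joined cells of 2 mice and a KO sample came from 1 mouse, so pooling and genotype cannot be told apart. The sources give day 18 in the protocol and day 14 in the series design, and a sample held 10000 to 20000 sorted cells.

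A T cell needs a signal through its antigen receptor and a further signal from co-stimulatory receptors to divide and make cytokines. CD28 is the founding co-stimulator, binds CD80 and CD86 and shares these ligands with the inhibitor CTLA-4. ICOS is an inducible relative with its own ligand. CD226 binds CD155, encoded by *Pvr*, and competes for it with the inhibitory TIGIT and with CD96, while CRTAM binds CADM1. CD2 is an adhesion and signaling receptor for CD48, and CD5 and CD6 sit beside the T cell receptor and adjust the strength of its signal. In tumors, exhausted CD8+ T cells carry several of these receptors together with inhibitory ones.

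Total counts on genes ranged from 11657807 to 30295406 per sample, and 3 counts corresponded to 0.106 to 0.25 CPM, a gene's counts relative to the library size. CPM values below were scaled with edgeR's TMM factors, S1 to S4 name the WT samples and S5 to S8 the KO samples. *Kdm1a*, which encodes LSD1, was at 44.6, 47.2, 42.7 and 44.9 CPM in S1 to S4 and at 25.2, 30.5, 32 and 34.8 CPM in S5 to S8. The KO samples all lay under the lowest WT sample, with a log2 fold change of -0.55 ± 0.14 (SE, n = 4 per group) and an adjusted p of 0.0163 by edgeR's quasi-likelihood test. These counts cover the whole gene, so the floxed part was not seen separately. The summed level of 10 T cell markers was 4220 to 4839 CPM in WT and 3893 to 4660 CPM in KO. That sum includes *Cd44*, called higher in KO, at 399 to 488 CPM in WT and 670 to 952 CPM in KO. The log2 fold changes of the 10 markers had a median of -0.27, with 8 below 0. Of 17 tested myeloid markers, 12 were called lower in KO, with a summed level of 604 to 1743 CPM in WT against 351 to 465 CPM in KO. Summed CD4 T cell markers were at 68.1 to 95.8 CPM in WT and 153 to 186 CPM in KO, with *Cd4* itself at 1.86 to 6.87 and 7.26 to 26.2 CPM. Most of that sum came from *Zbtb7b*, with means of 44.6 CPM in WT and 102 CPM in KO, and *Ikzf4*, with 32.1 and 41.3 CPM. NK cell markers summed to 11.4 to 36.7 CPM in WT and 3.55 to 11.4 CPM in KO, in WT mostly from *Fcer1g* and *Tyrobp*, which myeloid cells also express, whereas *Klrb1c* was at 0 to 1.32 CPM in WT and 2.15 to 5.51 CPM in KO (log2 fold change 3.12, adjusted p 0.0338 by edgeR, called higher by DESeq2). Tumor and stroma markers summed to 34.9 to 62.6 CPM in WT and 81.5 to 111 CPM in KO, where *Pecam1* alone was at 20.3 to 26.3 and 56.2 to 77 CPM, and *Cdh1*, the other of these markers above 5 CPM, overlapped between the groups. Of B cell markers, *Cd79a* was at 0.0816 to 0.872 CPM in WT and 1.3 to 3.84 CPM in KO, and *Cd22* at 1.22 to 5.77 and 14.5 to 43.2 CPM. The defining markers *Ncr1*, *Ms4a1*, *Epcam* and *Krt8* were below 1 CPM in every sample. The part of these other cells in the results that follow was not tested.

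*Icos* and *Cd2* were higher in LSD1-deficient TILs, whereas *Cd28*, *Cd226*, *Crtam*, *Cd5* and *Cd6* did not pass the thresholds. A gene was called when it differed more than 1.5-fold with an adjusted p (Benjamini-Hochberg, over all tested genes) under 0.01, the thresholds of the study. Of the 7 genes, 2 were called higher and 0 lower by edgeR, where 2.91% of all tested genes were called higher and 1.99% lower. DESeq2 also called 2 higher and 0 lower, where it called 617 of all 15378 tested genes higher and 461 lower. At an unadjusted p under 0.05 edgeR had 1 lower (*Cd226*) and 4 higher (*Cd28*, *Icos*, *Cd2* and *Cd5*). Over all 15378 tested genes, at least 3116 and fewer than 4105 passed this unadjusted cutoff. The bounds are the ranks by edgeR p of *Cd5* (0.0304) and *Cblb* (0.0629). The samples of the groups did not overlap for 3 of the 7 genes, *Icos*, *Cd2* and *Cd226*, where 17.3% of all tested genes had groups without overlap. The log2 fold changes of the members had a median of 0.30, against -0.01 over all tested genes. In bulk RNA, fewer cells of a type and less RNA per cell cannot be told apart.

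**Figure D1:**
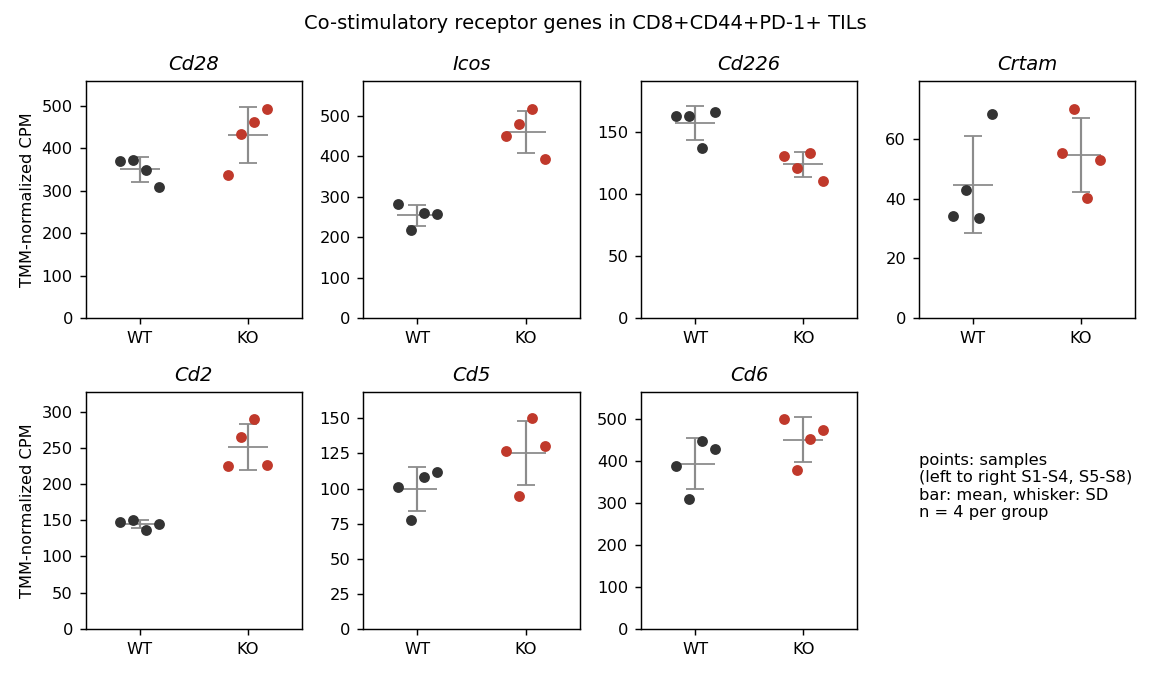
TMM-normalized CPM (y axis, linear from 0) of the 7 receptor genes in each WT (black) and KO (red) sample, with the mean and SD of 4 samples per group. All 4 KO samples lie above all WT samples for *Icos* and *Cd2* and below them for *Cd226*, and the groups overlap for the other 4 genes.

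CD28 and ICOS signal through a short cytoplasmic tail with a tyrosine motif that recruits phosphoinositide 3-kinase, and the inhibitory CTLA-4 carries a related one. The coding bases around it are shown because these genes are neighbors on chromosome 1 and are the members of the family compared most closely below. The motif was searched on the coding strand as a tyrosine codon (TAT or TAC), any 2 codons and ATG, in the last 60 codons of the 3 coding sequences, and each held 1 match. Capitals mark the 4 codons of the match, with 5 codons on either side, read from GRCm38 on the plus strand.
*Cd28*, chr1:60769678-60769719, codons 189 to 192 of 218: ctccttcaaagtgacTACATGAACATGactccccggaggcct
*Ctla4*, chr1:60914631-60914672, codons 201 to 204 of 223: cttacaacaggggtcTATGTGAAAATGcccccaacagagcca
*Icos*, chr1:60995545-60995586, codons 181 to 184 of 223: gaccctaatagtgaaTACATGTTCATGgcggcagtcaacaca
The third codon of the motif is AAC in *Cd28*, AAA in *Ctla4* and TTC in *Icos*.

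*Cd28* (ENSMUSG00000026012, chr1:60716800-60773359) was at 371, 373, 348 and 308 CPM in S1 to S4. In KO it was at 338, 434, 461 and 492 CPM in S5 to S8. S5 fell within the WT range and the other 3 KO samples lay above it. The log2 fold change was 0.30 ± 0.11 (SE, n = 4 per group), with a 95% interval of 0.06 to 0.54, an adjusted p of 0.103 by edgeR and an exact two-sided permutation p of 0.114. The exact test over 70 arrangements cannot give less than 0.0286.

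*Icos* (ENSMUSG00000026009, chr1:60977927-61000320) was at 281, 217, 259 and 258 CPM in S1 to S4. It reached 449, 478, 517 and 393 CPM in S5 to S8, so the lowest KO sample, S8, was still above the highest WT sample. The means were 254 ± 26.6 CPM in WT and 459 ± 52.2 CPM in KO (SD, n = 4 each), a 1.81-fold difference with a 95% interval of 1.55 to 2.12. *Icos* rose by 0.86 ± 0.11 (SE) on the log2 scale, with an adjusted p of 4.97e-05 by edgeR and an exact permutation p of 0.0286. It ranked 141 by p among all tested genes. *Icos* stayed called when each sample was left out in turn, with log2 fold changes of 0.79 to 0.93. *Gm37039*, an annotated gene inside its span on the same strand, shares no exonic base with it and held 5.73% as many counts.

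Relative to *Cd28* in the same sample, *Icos* was at 0.757, 0.582, 0.744 and 0.838 in WT samples S1 to S4 and reached 1.33, 1.1, 1.12 and 0.798 in KO samples S5 to S8, as ratios of CPM in which library scaling cancels. The ratios were not divided by exon length, so a value above or below 1 does not rank these genes. S8 fell within the WT range, since it had the highest *Cd28* and the lowest *Icos* of the KO group. The ratio was 1.48 times higher in KO, with an exact permutation p of 0.0571 and an adjusted p of 0.0714 over 5 receptor pairs. Without S8 the log2 difference was 0.70 in place of 0.56. That omission takes out the overlapping KO sample, so its exact permutation p of 0.0286 follows from the choice of sample. Omitting any other sample gave an exact permutation p of 0.0571 to 0.0857.

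*Ctla4* lies between *Cd28* and *Icos*, 62.1 kb before the start of *Icos*. It was at 275, 267, 273 and 309 CPM in S1 to S4 and at 404, 508, 614 and 419 CPM in S5 to S8, without overlap. *Ctla4* rose by 0.79 ± 0.12 (SE, n = 4 per group) on the log2 scale, with an adjusted p of 3.54e-04 by edgeR. The ratio of *Cd28* to *Ctla4* took values of 1.35, 1.4, 1.27 and 0.996 in S1 to S4, so *Cd28* CPM exceeded *Ctla4* CPM in 3 of 4 WT samples. It was 0.838, 0.855, 0.751 and 1.17 in S5 to S8, below 1 in 3 of 4 KO samples. Per kilobase of exons, however, mean *Ctla4* CPM exceeded mean *Cd28* CPM in both groups, at 121 against 57.2 in WT and 209 against 70.5 in KO. The ratio was 0.716 times its WT level in KO, with an exact permutation p of 0.0571 and an adjusted p of 0.0714, and the groups overlapped. Before *Cd28*, the pseudogene *Eif4a-ps4* had a log2 fold change of -0.38 with an adjusted p of 0.0499, and after it *2310016D23Rik*, at up to 4.68 CPM, had 0.55 with an adjusted p of 0.591. The next tested gene after *Icos*, *Nrp2*, lay 1703 kb away, with 1.07 to 4.09 CPM in WT samples and at most 0.918 CPM in KO, with an adjusted p of 0.0825.

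**Figure D2:**
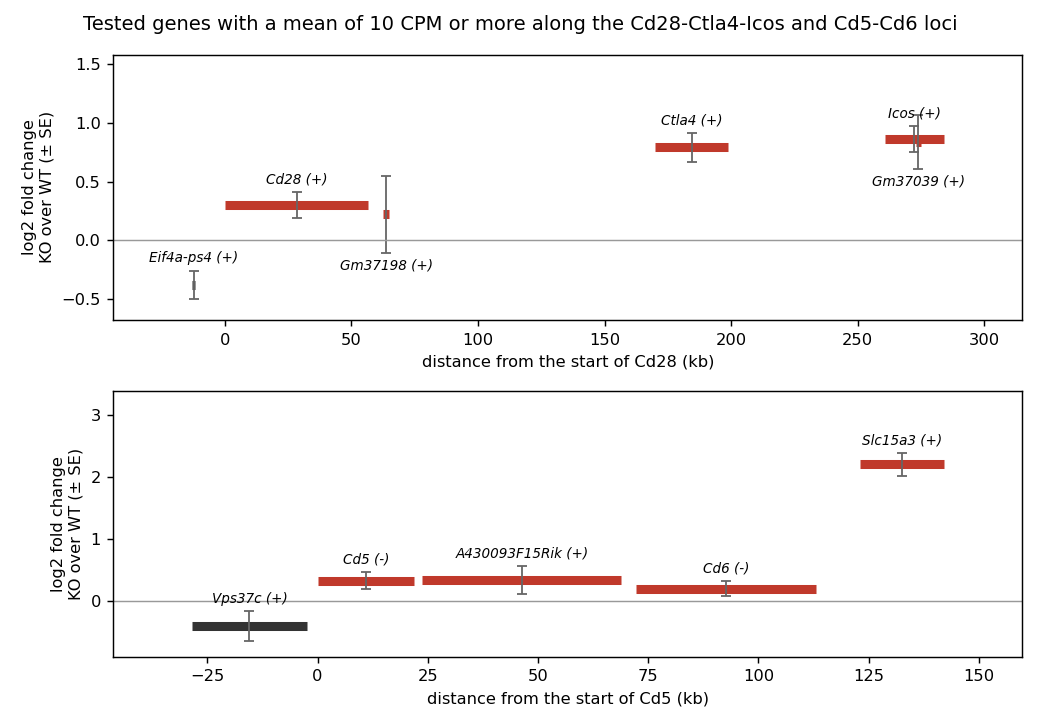
Log2 fold change (KO over WT, whiskers SE) of each tested gene with a mean of at least 10 CPM in a group, drawn over its span as distance in kb from the start of *Cd28* (upper) or *Cd5* (lower), with the strand in brackets. Along the upper locus *Ctla4* and *Icos* sit at 0.79 and 0.86 and *Cd28* at 0.30. Along the lower one *Slc15a3*, after *Cd6* in coordinate order, stands apart at 2.21.

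CD226 is an activating receptor whose loss accompanies dysfunction of CD8+ T cells. *Cd226* (ENSMUSG00000034028, chr18:89176967-89272229) was at 163, 163, 137 and 166 CPM in S1 to S4. In S5 to S8 it was at 131, 121, 133 and 111 CPM, below all WT samples, although S3 at 137 CPM was close to the highest KO sample. The log2 fold change was -0.34 ± 0.10 (SE, n = 4 per group), with a 95% interval of -0.56 to -0.13, an adjusted p of 0.0398 by edgeR and an exact permutation p of 0.0286. *Cd226* was not called, since its KO level was 0.788 of the WT level and its adjusted p was not under 0.01. The T cell receptor and CD8 genes were at 0.02 (*Cd3d*), -0.04 (*Trac*), -0.26 (*Cd3e*), -0.27 (*Cd8a*), -0.33 (*Cd247*), -0.36 (*Cd3g*) and -0.39 (*Cd8b1*) on the same scale, and none of these 7 was called by edgeR. In a fit chosen after seeing the data, with libraries scaled to these 7 genes, the median of all tested genes moved to 0.22, and *Cd226* was at -0.11 with an adjusted p of 0.555. Of its neighbors, *Rttn* was at -0.19 on the log2 scale (adjusted p 0.507 by edgeR) and *AC110375.1*, at 1.4 CPM or less, at -1.41 (adjusted p 0.441).

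TIGIT and CD96 compete with CD226 for CD155. *Tigit* was at 64.9, 69.3, 66.3 and 85.1 CPM in S1 to S4 and at 118, 109, 118 and 80.3 CPM in S5 to S8. S8 was below S4, and the other 3 KO samples were above all WT samples. The log2 fold change of *Tigit* was 0.57 ± 0.13 (SE, n = 4 per group) with an adjusted p of 0.0102, just outside the thresholds, and it was called without S4 (0.67, adjusted p 0.00707) or without S8 (0.69, adjusted p 0.00157) by the same edgeR test. *Cd96* was at 68 to 89 CPM in WT and 74.2 to 108 CPM in KO, with a log2 fold change of 0.10 and an adjusted p of 0.725, and of -0.01 without S5.

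The ratio of *Cd226* to *Tigit* was lower in every KO sample than in any WT sample. It stood at 2.51, 2.35, 2.06 and 1.95 in the WT samples S1 to S4. In the KO samples S5 to S8 it stood at 1.11, 1.11, 1.13 and 1.38. The log2 ratio was 1.14 ± 0.17 in WT and 0.24 ± 0.15 in KO (SD, n = 4 each), so the KO ratio was 0.534 of the WT ratio, with an exact permutation p of 0.0286, the smallest the design allows. Adjusted over the 5 pairs, p was 0.0714 and did not pass 0.05. Leaving out each sample in turn gave log2 differences of -0.98 to -0.84. The ratio of *Cd226* to *Cd96* stood at 2.4, 1.85, 1.57 and 1.86 in the WT samples and at 1.22, 1.36, 1.59 and 1.49 in the KO samples, with overlap between S3 and S7. Its KO level was 0.74 of the WT level, with an exact permutation p of 0.0571 and an adjusted p of 0.0714. Without S3, the overlapping WT sample, the exact permutation p of 0.0286 follows from the choice of sample. Omitting any other sample gave an exact permutation p of 0.0571 to 0.0857.

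**Figure D3:**
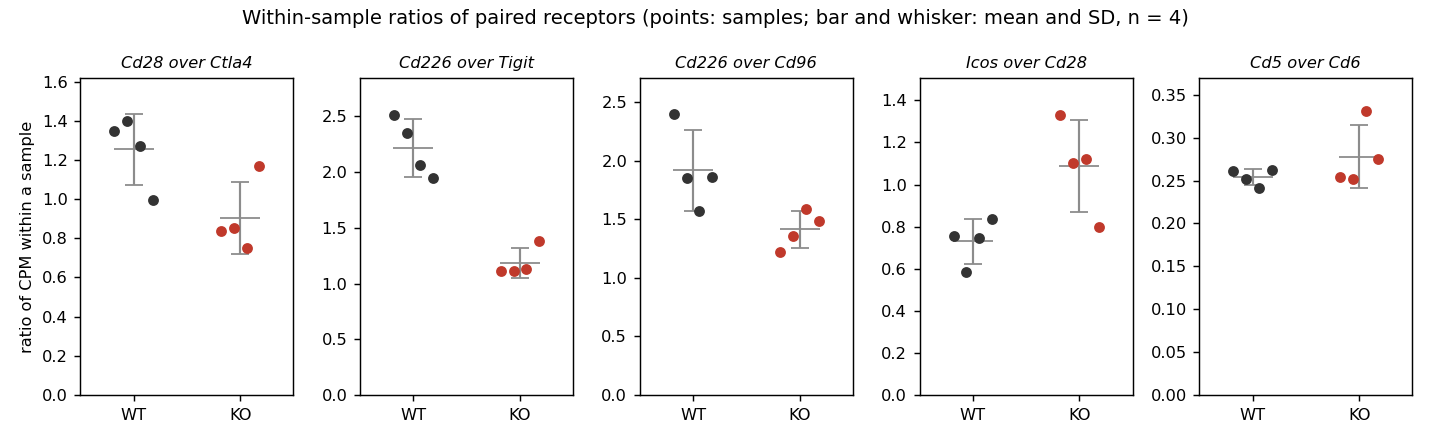
Within-sample ratios of CPM (y axes, linear from 0) for 5 receptor pairs in WT (black) and KO (red) samples, with mean and SD of 4 samples. Only *Cd226* over *Tigit* separates the groups fully among these 5 pairs, with WT samples from 1.95 to 2.51 and KO samples from 1.11 to 1.38.

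CRTAM is induced by activation on cytotoxic lymphocytes. *Crtam* (ENSMUSG00000032021, chr9:40969691-41004628) had the lowest level of the 7 genes and the widest WT spread relative to its mean. It was at 34.1, 42.9, 33.6 and 68.1 CPM in S1 to S4 and at 55.3, 70, 40.1 and 52.8 CPM in S5 to S8. S4 was above 3 of the 4 KO samples, and only S6 exceeded the WT range. The log2 fold change was 0.29 ± 0.21 (SE, n = 4 per group), with a 95% interval of -0.16 to 0.73, an adjusted p of 0.449 by edgeR and an exact permutation p of 0.371. Without S4 it was 0.56, and it was not called then either. Of its neighbors, *Ubash3b* had a log2 fold change of 0.08, and *Bsx* was at or below 3.6 CPM.

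CD2 joins T cells to their partners through CD48 in mice and lowers the threshold for activation. *Cd2* (ENSMUSG00000027863, chr3:101275899-101287939) was at 147, 150, 137 and 145 CPM in S1 to S4, the tightest group of the 7 genes relative to its mean. It was at 225, 265, 290 and 226 CPM in S5 to S8, and the groups were far apart, with no KO sample under 225 CPM and no WT sample over 150. The means of 145 ± 5.37 and 252 ± 31.4 CPM (SD, n = 4 each) differed 1.74-fold, with a 95% interval of 1.49 to 2.02. *Cd2* rose by 0.80 ± 0.10 (SE) on the log2 scale, with an adjusted p of 6.73e-05 by edgeR and an exact permutation p of 0.0286. It stayed called with each sample left out, at log2 fold changes of 0.72 to 0.85.

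Neither *Icos* nor *Cd2* was called by a stricter test of the fold threshold or in a fit with a covariate for myeloid RNA. Tested by edgeR's glmTreat against a fold change of 1.5, the adjusted p was 0.0702 for *Icos* and 0.158 for *Cd2*, so neither was shown to exceed 1.5-fold by that stricter test. With a covariate for myeloid RNA, the mean log2 CPM of the myeloid markers, which did not overlap between the groups (4.84 to 6.19 in WT, 2.96 to 3.67 in KO), *Icos* was at 0.94 with an adjusted p of 0.351 and *Cd2* at 0.69 with an adjusted p of 0.505. The SE in that fit was 0.30 for *Icos* and 0.29 for *Cd2*, in place of 0.11 and 0.10. Myeloid RNA and genotype cannot be told apart in it, so it does not test whether either gene depends on myeloid RNA. Scaled to the 7 T cell receptor and CD8 genes, *Icos* was at 1.08, *Cd2* at 1.03 and *Cd28* at 0.53, of which the first 2 were called. In coordinate order, the nearest tested gene before *Cd2*, itself on the minus strand, was *Ptgfrn* at 166 kb. *Ptgfrn* rose from 12.4 to 29.3 CPM in WT to 131 to 160 CPM in KO. Its log2 fold change was 3.09, with an adjusted p of 7.68e-08 by edgeR. The gene after *Cd2*, *Gm43467*, was at no more than 2.26 CPM, with an adjusted p of 0.252.

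CD5 restrains antigen receptor signals, and CD6 binds ALCAM on other cells. *Cd5* (ENSMUSG00000024669, chr19:10717116-10739002) was at 101, 77.6, 108 and 112 CPM in S1 to S4 and at 127, 95, 150 and 130 CPM in S5 to S8. S6 lay within the WT range, and the other KO samples were above it. The log2 fold change was 0.33 ± 0.14 (SE, n = 4 per group), with a 95% interval of 0.04 to 0.63, an adjusted p of 0.15 by edgeR and an exact permutation p of 0.143.

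*Cd6* (ENSMUSG00000024670, chr19:10789341-10830058), a paralog that lies close to *Cd5* on the same strand, was at 388, 309, 447 and 429 CPM in S1 to S4. It was at 500, 377, 452 and 473 CPM in S5 to S8, with S6 again the lowest KO sample and S2 the lowest WT sample, as for *Cd5*. The log2 fold change was 0.20 ± 0.12 (SE, n = 4 per group), with a 95% interval of -0.05 to 0.45, an adjusted p of 0.338 by edgeR and an exact permutation p of 0.229. The ratio of *Cd5* to *Cd6* varied little, from 0.241 to 0.262 in WT and from 0.252 to 0.331 in KO, with S7 highest. The exact permutation p of this ratio was 0.229. *A430093F15Rik*, between them on the opposite strand, had a log2 fold change of 0.34 with an adjusted p of 0.361 by edgeR. *Vps37c*, before *Cd5* in coordinate order, had -0.41 with an adjusted p of 0.324. *Slc15a3*, a peptide and histidine transporter gene, lies 9.67 kb after *Cd6* in coordinate order, which is upstream of that minus-strand gene. *Slc15a3* rose from 17.1 to 30 CPM in WT to 84.5 to 145 CPM in KO. Its log2 fold change was 2.21, with an adjusted p of 7.02e-07 by edgeR. The log2 fold changes of *Cd5* and *Cd6* were 0.33 and 0.20 beside it.

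Per length of exons, as RPKM, which divides CPM by exon length in kilobases, *Cd2* was the most abundant of the 7 in WT at 83.1 ± 3.09 (SD, n = 4), followed by *Icos* at 74 ± 7.77. Their ranges overlapped, at 78.9 to 86.1 RPKM for *Cd2* and 63.3 to 81.9 RPKM for *Icos*, so the order of these neighbors was within the spread. *Cd28* at 57.2 ± 4.99 and *Cd6* at 49.3 ± 7.7 RPKM came next, also with overlapping ranges. *Cd226* at 32.2 ± 2.8, *Cd5* at 20.2 ± 3.12 and *Crtam* at 8.71 ± 3.16 RPKM followed, each below the whole range of the gene before it. In KO, *Cd2* at 144 ± 18 and *Icos* at 134 ± 15.2 RPKM overlapped each other and lay above all samples of *Cd28*, at 70.5 ± 10.8 RPKM. *Cd28* and *Cd6*, at 56.6 ± 6.61 RPKM, overlapped. *Cd226* and *Cd5* had the same KO mean of 25.4 RPKM, with SDs of 2.13 and 4.59, and *Crtam* was lowest at 10.6 ± 2.39 RPKM.

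The ligands of these receptors are mostly made by antigen-presenting or tumor cells, although activated T cells can carry some of them. Of 8 ligand genes, 7 were tested, with a median log2 fold change of 0.33. By edgeR 2 were called higher and 1 lower, where 2.91% of all tested genes were called higher and 1.99% lower. DESeq2 called 2 higher and 2 lower, *Icosl* as well as *Cadm1*. Over all 15378 tested genes DESeq2 called 617 higher and 461 lower. *Cd86*, a ligand of CD28 and CTLA-4, was at 26, 23.4, 26.9 and 20.5 CPM in S1 to S4 and at 54.7, 66.2, 53.6 and 45.8 CPM in S5 to S8, without overlap. It rose by 1.18 ± 0.15 (SE, n = 4 per group) on the log2 scale, with an adjusted p of 6.02e-05 by edgeR. In the same samples 12 myeloid markers were called lower and 5 were not called. The log2 fold changes of these 5 were -0.64 (*Ctss*), -0.41 (*Cd68*), -0.26 (*Cd74*), -0.02 (*Itgax*) and -0.01 (*Itgam*). Which cells carried the *Cd86* RNA was not tested. *Cd80*, the other CD28 ligand, had a log2 fold change of 0.33 with an adjusted p of 0.327.

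*Pvr*, the gene of the CD226 and TIGIT ligand, was at 56.7, 54.5, 54.1 and 31.9 CPM in S1 to S4 and at 92.2, 78.1, 102 and 109 CPM in S5 to S8. No KO sample was as low as the highest WT sample, and the log2 fold change was 0.95 with an adjusted p of 0.001 by edgeR. *Cadm1*, the gene of the CRTAM ligand, was at 2.73, 6.43, 9.87 and 8.58 CPM in S1 to S4 and under 1 CPM in every KO sample. It fell by 3.86 on the log2 scale, with an adjusted p of 5.1e-04 by edgeR, and it was highest in S3, the sample with the highest mean of the myeloid markers. With that mean as a covariate *Cadm1* was at -0.91 with an adjusted p of 0.906 by edgeR, and its SE was 1.41 in place of 0.61. The mean did not overlap between the groups, so that fit cannot tell myeloid RNA from genotype, and it called 0 of all tested genes lower. The part of myeloid RNA in the level of *Cadm1* was not tested. *Icosl*, the gene of the ICOS ligand, had a log2 fold change of -1.20 with an adjusted p of 0.0312, *Cd48* of -0.19 with 0.292, and *Alcam* of 0.45 with 0.0203. *Nectin2* was at 1.51 CPM or less and was not tested.

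Of 7 related inhibitory or modulatory receptors, *Ctla4* was called higher and *Cd244a* lower by edgeR, and DESeq2 called *Pvrig* lower as well. Over all 15378 tested genes edgeR called 2.91% higher and 1.99% lower, and DESeq2 called 617 higher and 461 lower. *Cd244a*, the gene of the CD48 receptor 2B4, was at 19.5, 27.3, 34.8 and 19.4 CPM in S1 to S4 and at 15.8, 7.35, 7.26 and 5.91 CPM in S5 to S8. It fell by 1.48 on the log2 scale, with an adjusted p of 0.00294 by edgeR, but was no longer called without S2, S3, S6 or S7 (adjusted p 0.0125 to 0.0152). With the mean of the myeloid markers as a covariate, *Cd244a* was at -0.20 with an adjusted p of 0.965 by edgeR, and its SE was 0.72 in place of 0.29. That mean did not overlap between the groups, so the fit cannot tell myeloid RNA from genotype. The part of myeloid RNA in the level of *Cd244a* was not tested. In the fit without that covariate *Cd2* and *Cd244a*, whose products both bind CD48, had log2 fold changes of opposite sign. *Pdcd1* had a log2 fold change of -0.33 with an adjusted p of 0.239, *Btla* of 0.67 with 0.0433, and *Pvrig* of -1.35 with 0.0145.

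**Figure D4:**
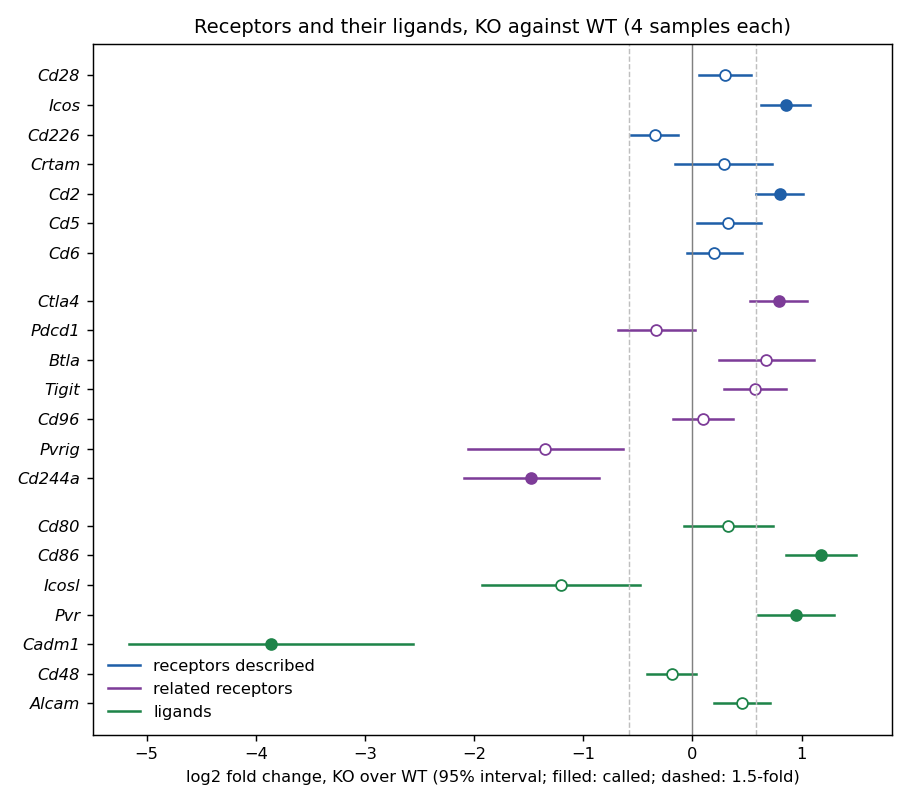
Log2 fold change, KO over WT, with its 95% interval for the 7 receptor genes (blue), 7 related receptors (purple) and 7 tested ligands (green), 4 samples per group. Filled points were called, and dashed lines mark a fold change of 1.5. *Icos*, *Cd2*, *Ctla4*, *Cd86* and *Pvr* are filled on the right, *Cd244a* and *Cadm1* on the left.

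Of 27 tested genes that carry the signals of these receptors inside the cell, 0 were called higher and 1 lower by edgeR, with a median log2 fold change of 0.07. At an unadjusted p under 0.05 by edgeR, 5 were higher and 2 lower, a cutoff that at least 3116 of all 15378 tested genes passed. DESeq2 called 1 higher, *Cd2ap*, and 1 lower, *Ptpn6*. Over all 15378 tested genes edgeR called 2.91% higher and 1.99% lower, and DESeq2 called 617 higher and 461 lower. *Ptpn6*, which encodes the phosphatase SHP-1, was at 230, 261, 266 and 288 CPM in S1 to S4 and at 219, 131, 177 and 152 CPM in S5 to S8. It fell by 0.62 on the log2 scale with an adjusted p of 0.0054, and it was not called without S2, S3, S4, S6, S7 or S8 (adjusted p 0.0142 to 0.0225). *Itgb2*, an integrin chain, had a log2 fold change of 0.55 with an adjusted p of 0.00147 but a fold change of 1.46, under the threshold. *Cd2ap*, an adaptor that binds the CD2 tail, had 0.67 with an adjusted p of 0.0157, and *Lck*, the kinase that starts antigen receptor signaling, had -0.05 with 0.813. The last 3 genes were named after their values were seen.

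Roquin and Regnase proteins destroy *Icos* mRNA, among other transcripts. Their genes *Rc3h1*, *Rc3h2* and *Zc3h12a* were at 0.24, 0.27 and 0.45 on the log2 scale, with adjusted p of 0.102, 0.112 and 0.0205 by edgeR. The 3 genes had an unadjusted p under 0.05, as did at least 3116 of all tested genes, but 0 were called by edgeR or DESeq2. Each was under the 1.5-fold threshold, and none had an adjusted p under 0.01 by edgeR. Of 5 tested genes that co-stimulation is known to raise, *Tnf* was called higher by edgeR, as were 2.91% of all tested genes. *Tnf* was at 57.7, 56.5, 59.3 and 55.5 CPM in S1 to S4 and at 128, 174, 118 and 114 CPM in S5 to S8, a log2 fold change of 1.22 ± 0.13 (SE, n = 4 per group) with an adjusted p of 8.65e-06 by edgeR. *Ifng* had 0.49 with an adjusted p of 0.0331, *Il2* -0.38 with 0.766, *Bcl2l1* -0.35 with 0.0893 and *Slc2a1*, a glucose transporter gene, -0.43 with 0.0236. *Il22* had no counts in any sample.

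The genes whose log2 CPM followed each member most closely over the 8 samples are given as a description, since samples of both groups enter and the best of many genes were taken. *Cd28* was followed by *Tob1* (Pearson's r 0.982), *Lef1* (0.977) and *Spata13* (0.966). *Lef1* encodes a transcription factor related to TCF1, and its log2 fold change was 0.71, whereas *Cd28* was at 0.30. *Icos* was followed by *Tgif1* (0.986), *Satb1* (0.986) and *Trpv2* (0.983), with log2 fold changes of 0.73, 0.65 and 0.75. *Cd2* was followed by *Tlk1* (0.989), *Tmem8* (0.988) and *Nid1* (0.988). For the other 4 genes the closest were *Htatip2* (0.956), *Kcnip3* (0.956) and *Fam133b* (0.952) for *Cd226*, *Mvk* (0.954), *Trmt11* (0.952) and *4833439L19Rik* (0.942) for *Crtam*, *Ddx39b* (0.976), *Snora73b* (0.963) and *Strbp* (0.955) for *Cd5*, and *Gm29113* (0.968), *Gm47664* (0.942) and *Slc24a3* (0.941) for *Cd6*.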

How the data were processed

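The authors aligned paired reads of rRNA-depleted directional libraries to GRCm38 with STAR, counted them on GENCODE genes with featureCounts, and deposited raw counts per gene with no normalization. The strand setting used for counting was not given in the sources used here. All 8 columns, S1 to S8, were used. They were assigned to WT or KO from the sample names of the study and could not be matched to replicate numbers, so the p-values measure the spread between these samples. Coordinates and exon lengths came from GENCODE M21 on GRCm38, an earlier release than the authors used, which matched 55154 of 55335 gene IDs. For neighboring genes, before, after and start refer to coordinate order, whatever the strand. Depth was 11657807 to 30295406 counts, and the floor of 3 counts covers counting error only, as PCR copies are not independent molecules.

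Counts were filtered with filterByExpr, scaled with TMM and tested with edgeR 4.0.16 (glmQLFit, glmQLFTest) in R 4.3.3, with Benjamini-Hochberg adjustment over 15378 genes. The SE was obtained by dividing the size of the log2 fold change by the root of the F statistic. Single genes and within-sample ratios were compared by exact permutation tests (two-sided, 70 arrangements) of log2 CPM, computed with 2 as the prior count. The edgeR fit was checked on simulated counts. RPKM divides CPM by the exon length, and the ratios do not.

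The members, gene lists and tests were chosen with earlier results of these data known. Named were all members, *Kdm1a*, 6 related genes (*Ctla4*, *Tigit*, *Cd96*, *Pdcd1*, *Btla*, *Cd48*), up to 5 called genes of every other list by size, the 3 genes most correlated with each member and the nearest tested genes on either side. Other genes were named after their values were seen: list members that were not called, *Gm37039*, which overlaps *Icos*, and defining cell type markers. Alternatives were DESeq2 size factors, upper quartile and library size scaling, other filters, DESeq2 1.42.0, glmTreat, an adjusted p of 0.05, GC content offsets (mgcv 1.9.3), a myeloid score covariate, a restriction to protein-coding genes and omission of each sample in turn. Scaling to 7 T cell receptor and CD8 genes (*Cd3d*, *Cd3e*, *Cd3g*, *Cd247*, *Trac*, *Cd8a*, *Cd8b1*) was added after seeing the data. The summed level of 1 marker list is not reported here.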

Additional observations from a re-analysis of the deposited data

Results flagged for a closer look

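In 4 of 50 groups of 4 samples, the gap between the outermost sample and the nearest other one took more of the whole range than Dixon's critical value at the 95% level allows, where 2.5 such groups would be expected by chance. *Cd226* in WT had a gap of 0.913 of the range, with S3 at a log2 CPM of 7.10 and the others at 7.35 to 7.38. *Cd96* in WT had 0.915, with S1 at 6.09 and the others at 6.44 to 6.48. *Pvr* in WT had 0.918, with S4 at 5.00 and the others at 5.76 to 5.83. The ratio of *Cd226* to *Tigit* in KO had 0.917, with S8 at a log2 ratio of 0.46 and the others at 0.15 to 0.18.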

How the results depend on the processing

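Of 20 alternatives, 18 kept both *Icos* and *Cd2* as called and none called another of the 7 genes. Among the 18, the adjusted p of 0.05 was a looser cutoff on the chosen fit, so there *Icos* and *Cd2* could not lose their call. glmTreat called 0 of the 7, with *Icos* at 0.86 and *Cd2* at 0.80 as in the chosen fit, and the myeloid score covariate called 0, with *Icos* at 0.94 and *Cd2* at 0.69. That score did not overlap between the groups, so it and genotype cannot be told apart. Over all genes, 447 were higher and 306 lower. The counts were 165 and 130 with glmTreat, 695 and 551 at an adjusted p of 0.05, 21 and 0 with the covariate, and 987 and 201 when scaled to T cell genes, where 83.1% of calls were higher in place of 59.4%. Without the filter 531 were lower, and 461 with DESeq2. Leaving out 1 sample gave 347 to 452 higher and 199 to 303 lower, lowest in both directions without S2. In the lists outside the 7 genes, without the cell type markers, 4 were higher and 3 lower. This became 2 and 1 with glmTreat, 0 and 0 with the covariate, 11 higher with T cell scaling, and 5 lower without the filter, with DESeq2 or at an adjusted p of 0.05. Leaving out 1 sample gave 4 to 6 higher and 1 to 5 lower. Without 1 sample, the log2 ratio differences ranged from -0.52 to -0.32 for *Cd226* over *Cd96* and from 0.46 to 0.70 for *Icos* over *Cd28*. *Cd96* ranged from -0.01 (without S5) to 0.18 with 1 sample left out, and turned sign only there, and *Cd48* turned to 0.02 with the covariate and 0.04 with T cell scaling. Other than where stated, the cause was not tested. No paired analysis was possible because the columns carry no replicate numbers that match the labels.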

Other observations

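Among markers of other cell types, *Zbtb7b*, which encodes a factor of the CD4 T cell lineage, was at 34.5 to 49.9 CPM in WT and 92.9 to 108 CPM in KO. *Cd40lg*, the gene of CD40 ligand, was at 1.9 to 3.02 and 7.93 to 18.4 CPM. *Cd22* was at 1.22 to 5.77 and 14.5 to 43.2 CPM while the B cell marker *Ms4a1* was at most 0.109 CPM. *Pecam1* was at 20.3 to 26.3 and 56.2 to 77 CPM, and *Cd44*, used in the sort, at 399 to 488 and 670 to 952 CPM. Each of these 5 genes was called higher in KO by edgeR. *Fcer1g*, an Fc receptor chain, was called lower, at 6.68 to 26.5 and 1.23 to 5.33 CPM.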
